A study of Mus musculus with 3 samples.

Results

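The collagen genes of the mouse were followed through RNA of embryonic spinal cord. They were chosen by name, as every gene whose symbol reads Col, a type number, the letter a and a chain number. The gene table held 44 of them among 51826 genes, and 43 reached 20 counts or more in some library, as did 18074 of all genes. These 43 were called measured. The member just outside this minimum was the type X collagen gene Col10a1, with 4 counts in WT, beside 4 in dE3 and 2 in cKO. Just inside it were Col4a3, with 20, 13 and 19 counts, and Col17a1, with 8, 28 and 10. The 43 genes were placed in 7 classes: 6 cartilage collagens (types II, IX and XI), 8 other fibrillar collagens, 8 of basement membranes, 6 of type VI, 6 fibril-associated collagens with interrupted triple helices (FACITs), 4 membrane-spanning collagens and 5 network-forming, anchoring and other collagens.

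Each genotype was represented by 1 library of spinal cord at embryonic day 13.5, and all embryos were of the C57BL/6 strain. The WT library came from wild type embryos, for which the labels name neither Cre nor a floxed allele. The dE3 library carried Nestin-Cre;Ctnnb1-floxed(Ex3), a deletion of exon 3 of the β-catenin gene that is labelled gain of function. The cKO library carried Nestin-Cre;Ctnnb1-floxed(Ex2-6), a deletion of exons 2 to 6 that is labelled loss of function. β-catenin carries canonical Wnt signals into the nucleus and links cadherins to the cytoskeleton, and exon 3 encodes the residues that mark it for degradation. The Nestin-Cre transgene recombines mainly in neural progenitors. How many embryos went into a library is not stated in the labels. The sequencing names of WT and dE3 carry the tag L2 and that of cKO carries L3, a difference that cannot be told apart from the cKO genotype.

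Collagens are triple-helical proteins of the extracellular matrix, and each type is built from 1 or more chains encoded by separate genes. Fibrils of types I, III and V give tissues such as the meninges and dermis their tensile strength, whereas cartilage fibrils are made of type II with type XI in their core and type IX on their surface. Type IV forms the sheet of every basement membrane, including those around blood vessels and at the surface of the cord. In the embryonic cord most collagen is known from vessels and the covering mesenchyme, and the cartilage of the vertebrae forms next to the cord from the sclerotome.

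Sequencing gave totals of 32167470 estimated counts for WT, 34790053 for dE3 and 33048837 for cKO, and mitochondrial genes took 2.24% to 2.97% of them. The cord label was checked against its markers: 23 of 23 spinal cord neuron genes were measured, with a summed level of 11070 to 13832 CPM (counts scaled to the size of the library), and none was called in either mutant library against WT. The 8 Hox genes of cord and hindbrain level summed to 1197 to 1367 CPM, again with no call. Of 12 neural progenitor genes, in contrast, 2 were called higher and 3 lower in dE3, and 1 lower in cKO. Ctnnb1 itself stood at 544 CPM in WT, with 461 in dE3 and 422 in cKO. A gene count does not resolve the deleted exons, so this value does not check the genotype labels. With 1 library per genotype there is no spread between replicates and no test. Every value below compares these 3 libraries, not the genotypes. Each ratio of scaled counts has an exact binomial (Clopper-Pearson) interval at 95%, which covers counting error only. The words rose and fell are kept for genes that were called, that is, where the ratio reached 2 in either direction and the interval excluded 1.

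Collagen RNA was higher in both mutant libraries than in WT. In dE3 against WT, 24 of the 43 collagens rose and 0 fell, where 6.52% of all measured genes rose and 3.78% fell. In cKO against WT, 15 rose and 1 fell, where 3.48% of all genes rose and 3.41% fell. Col17a1 reached the minimum through dE3 alone, and of the 42 others 23 rose in dE3. Between the mutants, 12 collagens were called higher in dE3 and 1 lower, beside 6.62% and 4.38% of all genes. The median log2 ratio of the 43 collagens was 1.30 in dE3 and 0.76 in cKO, both against WT, and that of all measured genes was 0.00 in each. Both comparisons share the WT library, so they are not independent of each other. Summed over the 43 genes, the scaled count was 1804 CPM in WT, beside 4081 in dE3 and 3590 in cKO. These sums gave a ratio of 2.26 (2.24 to 2.28) for dE3 and of 1.99 (1.97 to 2.01) for cKO against WT. The highest of the 3 levels was that of dE3 for 30 genes, of cKO for 12 and of WT for 1. RNA of whole tissue does not tell apart more cells of a type from more RNA per cell.

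**Figure D1:**
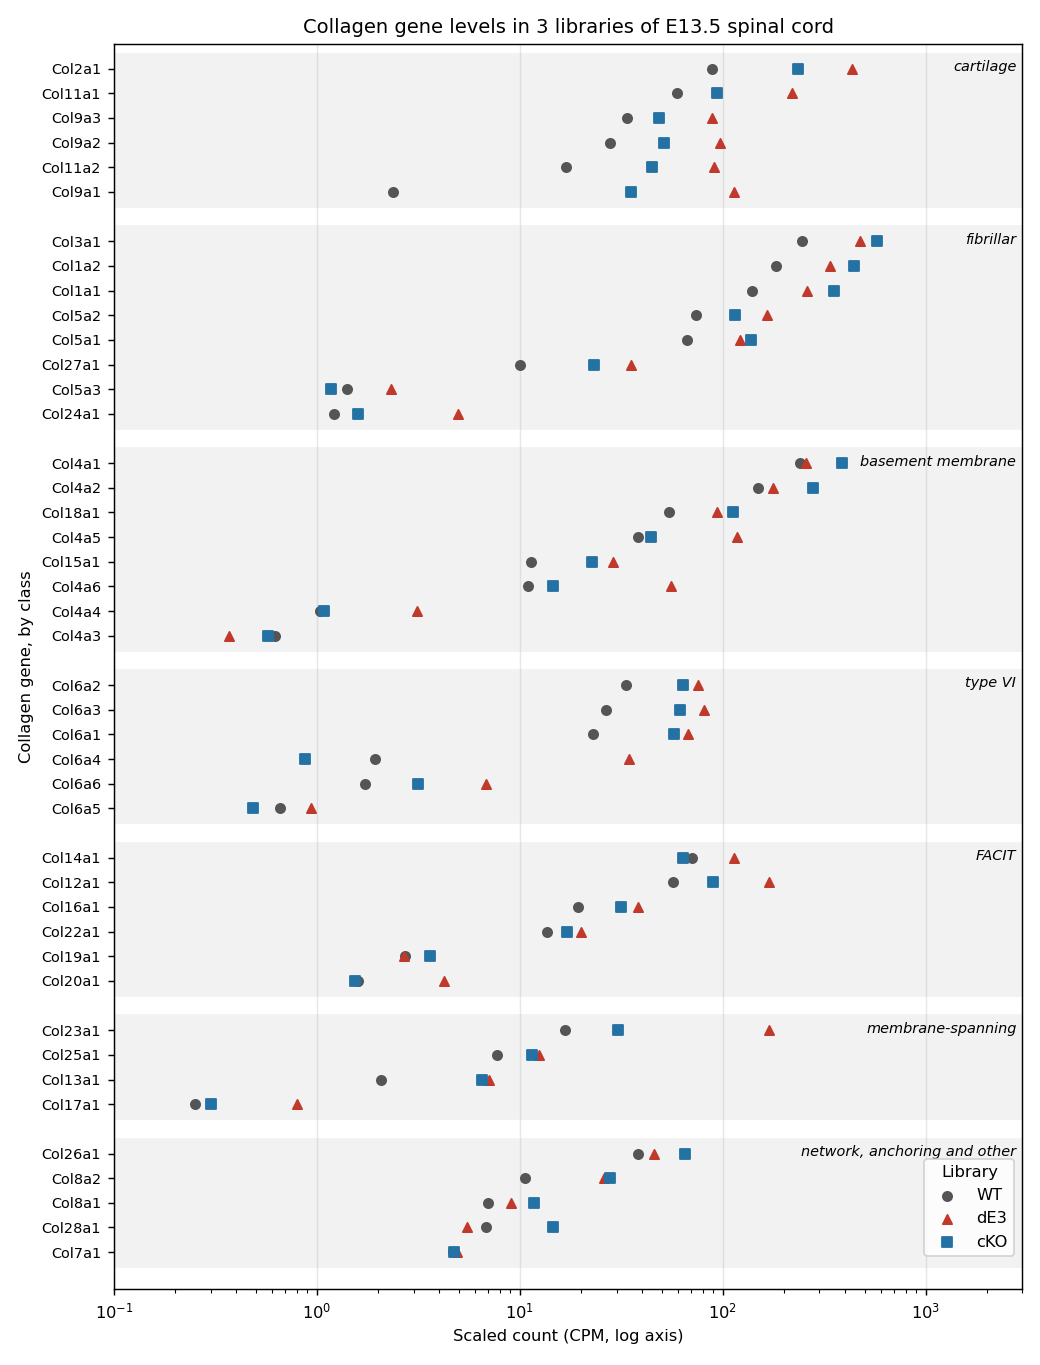
Scaled count of each of the 43 measured collagen genes (CPM, log axis) in the WT, dE3 and cKO libraries, grouped by class, with 1 point per library. All 6 cartilage collagens have their highest point in dE3 and their lowest in WT, whereas the points of cKO lie farthest right for Col1a1, Col1a2, Col3a1, Col4a1 and Col4a2.

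The cartilage collagens rose together in dE3, with 6 of 6 called higher than in WT and a median log2 ratio of 2.09. In cKO, 3 of 6 were called higher, with a median of 1.14. For all 6 the order of the levels was WT, then cKO, then dE3. By comparison, 18 of the 37 collagens of other classes rose in dE3 (median 0.99) and 12 of 37 in cKO (median 0.71). The summed level of the 6 genes was 229 CPM in WT, with 1043 in dE3 and 508 in cKO.

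Col2a1 encodes the only chain of type II collagen, the main fibril of cartilage. It held 88.7 CPM in WT, beside 432 in dE3 and 234 in cKO. Both mutant libraries were above WT, by 4.87-fold in dE3 (4.68 to 5.07) and 2.64-fold in cKO (2.53 to 2.76). The gene lies on the minus strand at chr15:97975602-98004695 of GRCm38. Col11a1 encodes a chain of type XI, which sets the diameter of cartilage fibrils, and measured 59.3, 221 and 93.4 CPM in WT, dE3 and cKO. It rose 3.73-fold in dE3 (3.54 to 3.92), while its ratio in cKO was 1.58 (1.49 to 1.67), under the threshold. Col11a2, the other gene specific to type XI, held 16.8, 91.0 and 45.0 CPM. It rose 5.41-fold in dE3 (4.93 to 5.94) and 2.67-fold in cKO (2.42 to 2.95). Without its most different transcript the log2 ratio in cKO was -1.33, so that setting turns its direction.

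Type IX collagen coats the cartilage fibril and is built from 3 chains, 1 from each of Col9a1, Col9a2 and Col9a3. Col9a1 had 76 counts in WT, with 3993 in dE3 and 1162 in cKO, or 2.38, 114 and 35.2 CPM. No other collagen differed as much from WT, with ratios of 47.9 (38.2 to 60.9) in dE3 and 14.8 (11.7 to 18.9) in cKO. Col9a2 measured 28.0, 97.1 and 51.5 CPM in WT, dE3 and cKO. Its ratio of 3.47 in dE3 (3.22 to 3.73) passed the threshold and that of 1.84 in cKO (1.69 to 1.995) did not. Col9a3 followed with 33.7, 88.7 and 48.8 CPM, a rise of 2.63-fold in dE3 (2.45 to 2.82) and a ratio of 1.45 in cKO (1.34 to 1.56). Exons of Col9a3 overlap those of Tcfl5 on the other strand over 234 bases, and strand use in the counting is not given in the sources used here.

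Since the 3 chains enter the type IX molecule in equal number, their levels were also set against each other per transcript length, in TPM. The ratio of Col9a1 to Col9a2 in TPM was 0.0792 in WT, beside 0.937 in dE3 and 0.603 in cKO. Col9a1 was thus the scarce chain in WT and near the level of Col9a2 in dE3. The ratio of Col9a3 to Col9a2 in TPM moved much less, from 1.53 in WT to 1.14 in dE3 and 1.15 in cKO. For type XI, Col11a2 stood at 0.392 of the TPM of Col11a1 in WT, with 0.551 in dE3 and 0.682 in cKO.

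Col2a1 is read into 2 main transcripts that differ in exon 2 and in the length of exon 1. Exon 2 encodes a cysteine-rich domain of the von Willebrand factor C type near the start of the procollagen. Exon 1 has 287 bases in the form with exon 2 and 249 in the other. The estimated split therefore need not rest on exon 2 alone. As background, the form with exon 2 (IIA) is known from precursor and non-cartilage cells and the form without it (IIB) from differentiated chondrocytes. Exon 2 is shown because its presence separates the forms. It spans chr15:98000403-98000606 on the minus strand (204 bases, all coding), read from GENCODE vM21 transcripts on GRCm38. Capitals mark its 10 cysteine codons among 67 whole codons in frame.
Col2a1 exon 2: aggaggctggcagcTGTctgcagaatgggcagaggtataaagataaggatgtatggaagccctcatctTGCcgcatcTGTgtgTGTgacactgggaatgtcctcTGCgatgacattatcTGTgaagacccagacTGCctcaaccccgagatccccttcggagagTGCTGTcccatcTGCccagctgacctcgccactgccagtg
The authors' estimated counts of the transcript with exon 2 (ENSMUST00000023123) were 2308 in WT, beside 7266 in dE3 and 3717 in cKO. Those of the transcript without exon 2 (ENSMUST00000088355) were 448, 7750 and 3928. The form without the cysteine-rich exon was thus the minor one in WT and about level with the other in both mutant libraries. Its share of the gene's counts was 15.8% in WT (exact binomial interval 14.5% to 17.2%), 51.2% in dE3 (50.4% to 52.0%) and 50.8% in cKO (49.7% to 51.9%). These intervals cover counting alone and not the error of dividing counts among transcripts, which is unknown for all transcript values given here. In scaled counts the form without exon 2 rose 15.8-fold in dE3 and 8.48-fold in cKO, and the form with exon 2 had ratios of 2.87 and 1.56. Without the counts of the form lacking exon 2, Col2a1 was not called in cKO against WT (log2 ratio 0.63).

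**Figure D2:**
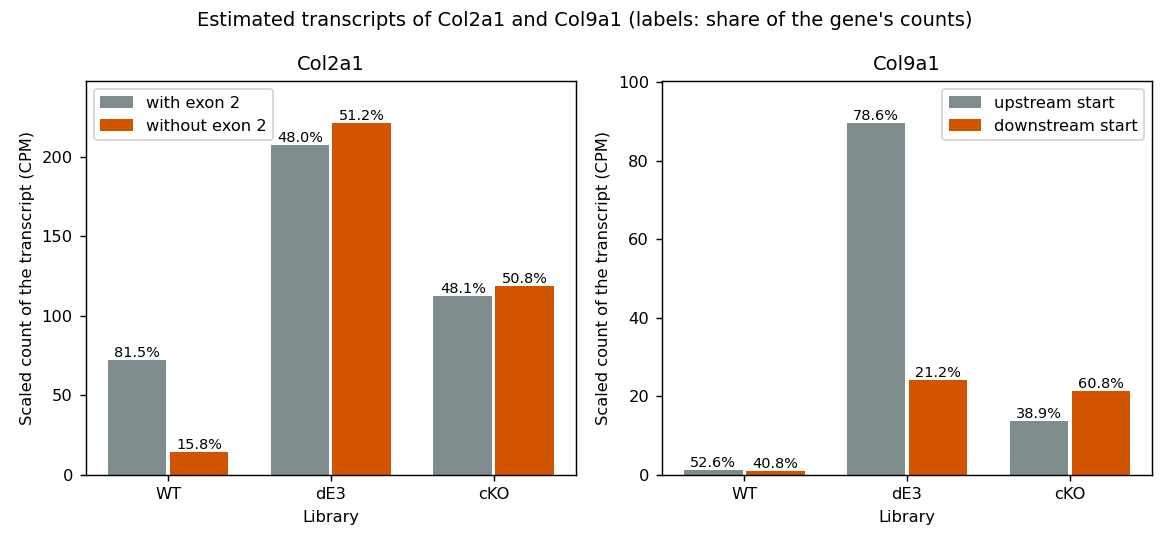
Scaled counts (CPM) of the 2 main transcripts of Col2a1 (left) and of Col9a1 (right) in each library, with the share of the gene's counts printed above each bar. The Col2a1 form without exon 2 goes from 15.8% of the gene in WT to 51.2% in dE3 and 50.8% in cKO, and the Col9a1 form from the upstream start is the larger one in dE3 (78.6%) and the smaller one in cKO (38.9%).

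Col9a1 (chr1:24177610-24252684, plus strand) is read from 2 start sites that lie 17577 bases apart. As background, the upstream start gives the long chain with the N-terminal NC4 domain that is typical of cartilage, and the downstream start gives a short chain first known from the eye. The bases before each start are shown because the 2 forms differed between the libraries. They come from RefSeq on GRCm38.p6 and end at the base before the first annotated start. Capitals mark any match, on either strand, to TCAAAG (the TCF/LEF core), to ACAATG (a SOX core), to GGGCGG (the GC box) or to TATAAA (the TATA box).
Col9a1 upstream start, chr1:24177360-24177609, plus strand: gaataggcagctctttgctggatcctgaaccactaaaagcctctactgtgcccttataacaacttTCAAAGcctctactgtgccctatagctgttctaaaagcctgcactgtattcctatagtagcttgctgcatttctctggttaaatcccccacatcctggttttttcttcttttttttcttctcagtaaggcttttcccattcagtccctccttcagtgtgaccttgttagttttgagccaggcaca
Col9a1 downstream start, chr1:24194953-24195186, plus strand: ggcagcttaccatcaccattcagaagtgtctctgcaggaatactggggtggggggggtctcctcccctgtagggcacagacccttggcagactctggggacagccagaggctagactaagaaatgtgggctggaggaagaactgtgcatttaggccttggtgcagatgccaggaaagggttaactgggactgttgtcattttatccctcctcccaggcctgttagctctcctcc
The upstream stretch holds TCAAAG, the core of sites bound by the TCF/LEF partners of β-catenin, and the downstream stretch holds none of the 4 motifs. The upstream transcript (ENSMUST00000054588) had 40 estimated counts in WT, with 3140 in dE3 and 452 in cKO. The downstream transcript (ENSMUST00000088349) had 31, 848 and 707. The upstream form was the more abundant in dE3 and the downstream form in cKO. Of the gene's counts, the upstream form took 52.6% in WT, beside 78.6% in dE3 and 38.9% in cKO. The downstream form took 40.8%, 21.2% and 60.8%. Scaled to library size, the upstream form rose 71.6-fold in dE3 and 10.9-fold in cKO, and the downstream form 24.9-fold and 22.1-fold. Without the upstream form, the log2 ratio of Col9a1 between dE3 and cKO was 0.18, which ends that call.

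Genes of cartilage cells moved with these collagens. Of 12 measured cartilage matrix markers outside the collagen family, 10 rose in dE3 (median log2 ratio 4.53) and 10 in cKO (2.65), and their summed level was 19.9 CPM in WT, with 238 in dE3 and 88.5 in cKO. Of the 6 that reached 20 counts in WT, 4 rose in dE3 and 5 in cKO, whereas the other 6 were measured through a mutant library, which favours a rise. Acan, the large proteoglycan of cartilage, had 33 counts in WT, beside 1916 in dE3 and 606 in cKO. Matn1, a matrilin of cartilage, had 11, 769 and 275. Ucma and 3110079O15Rik, the remaining matched markers, were at 0 in WT. Among 12 regulators of cartilage formation 4 rose in dE3 and 4 in cKO, or 1 and 1 of the 9 that reached the minimum in WT. The sclerotome factor Pax1 had 10 counts in WT, with 1217 in dE3 and 81 in cKO, and Nkx3-2, which acts with it, had 3, 148 and 12. Sox9, the factor that switches on Col2a1 and is also made by neural progenitors, held 48.3, 54.8 and 52.4 CPM and was not called. Sox6, its partner on cartilage genes, held 58.5, 37.5 and 56.8 CPM and was not called either. The part of these cells in the cartilage collagen values was not tested.

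The other fibrillar collagens form the fibrils of connective tissue, and those of types I and III were highest in cKO. Of 8 measured genes 5 rose in cKO (median log2 ratio 1.13) and 3 in dE3 (median 0.93). Col3a1, the gene of type III fibrils, held 247 CPM in WT, beside 476 in dE3 and 576 in cKO. Its ratio of 2.33 in cKO (2.27 to 2.39) passed the threshold, and that of 1.93 in dE3 (1.88 to 1.98) fell short of it. Col1a1, the major chain of type I, held 139, 261 and 353 CPM in WT, dE3 and cKO. It rose 2.54-fold in cKO (2.46 to 2.63), beside a ratio of 1.88 in dE3 (1.82 to 1.95). Col1a2, the other chain of type I, gave 183, 339 and 443 CPM and rose 2.42-fold in cKO (2.35 to 2.49), with a ratio of 1.85 in dE3 (1.79 to 1.91). In all 3 genes the cKO library was highest and WT lowest. The 28 (WT) and 41 (cKO) counts of Col3a1 outside its main transcript gave a log2 ratio of 0.50.

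The 2 type I chains kept their proportion across the libraries, as the Col1a1 to Col1a2 ratio in TPM was 0.678 in WT, beside 0.655 in dE3 and 0.681 in cKO. Type V collagen starts fibril growth, and its main chains parted. Col5a1 held 66.7, 122 and 138 CPM in WT, dE3 and cKO and rose in cKO (2.06-fold, 1.96 to 2.17). Col5a2 held 73.8, 166 and 116 CPM and rose in dE3 (2.24-fold, 2.14 to 2.36), with a ratio of 1.57 in cKO. In TPM, Col5a1 was 0.690 of Col5a2 in WT, beside 0.578 in dE3 and 0.911 in cKO. Nearly all Col5a2 counts belong to 1 transcript, and the few counts outside it (32 in WT and 34 in dE3) gave a log2 ratio of -0.05.

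Col24a1 and Col27a1 belong to a divergent group of fibrillar collagens that is expressed in developing bone and cartilage. Col27a1 held 10.01 CPM in WT, with 35.2 in dE3 and 23.3 in cKO, and rose 3.51-fold (3.10 to 3.98) and 2.33-fold (2.04 to 2.66). Its order of levels was that of the cartilage collagens, but also of members of other classes such as Col4a5, Col12a1 and Col23a1. Col24a1 had 39 counts in WT, beside 175 in dE3 and 53 in cKO, a rise of 4.09-fold in dE3 (2.88 to 5.95) and a ratio of 1.31 in cKO (0.853 to 2.04).

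Markers of fibroblasts and meninges were also higher in places. Of 18 such genes 8 rose in dE3 (median log2 ratio 0.65) and 5 in cKO (0.73), or 6 and 3 of the 16 that reached 20 counts in WT. Their sum of 790 CPM in WT, with 1254 in dE3 and 839 in cKO, was mostly Zic1, which the dorsal cord also expresses. Without Zic1 it was 256, 419 and 398 CPM. Dcn, a proteoglycan of fibroblasts, had 1489 counts in WT, beside 1899 in dE3 and 1809 in cKO and was not called. Of 5 osteoblast markers 1 rose in each mutant library, as did 2 of 5 tendon markers. Their part in the fibrillar collagen values was not tested.

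**Figure D3:**
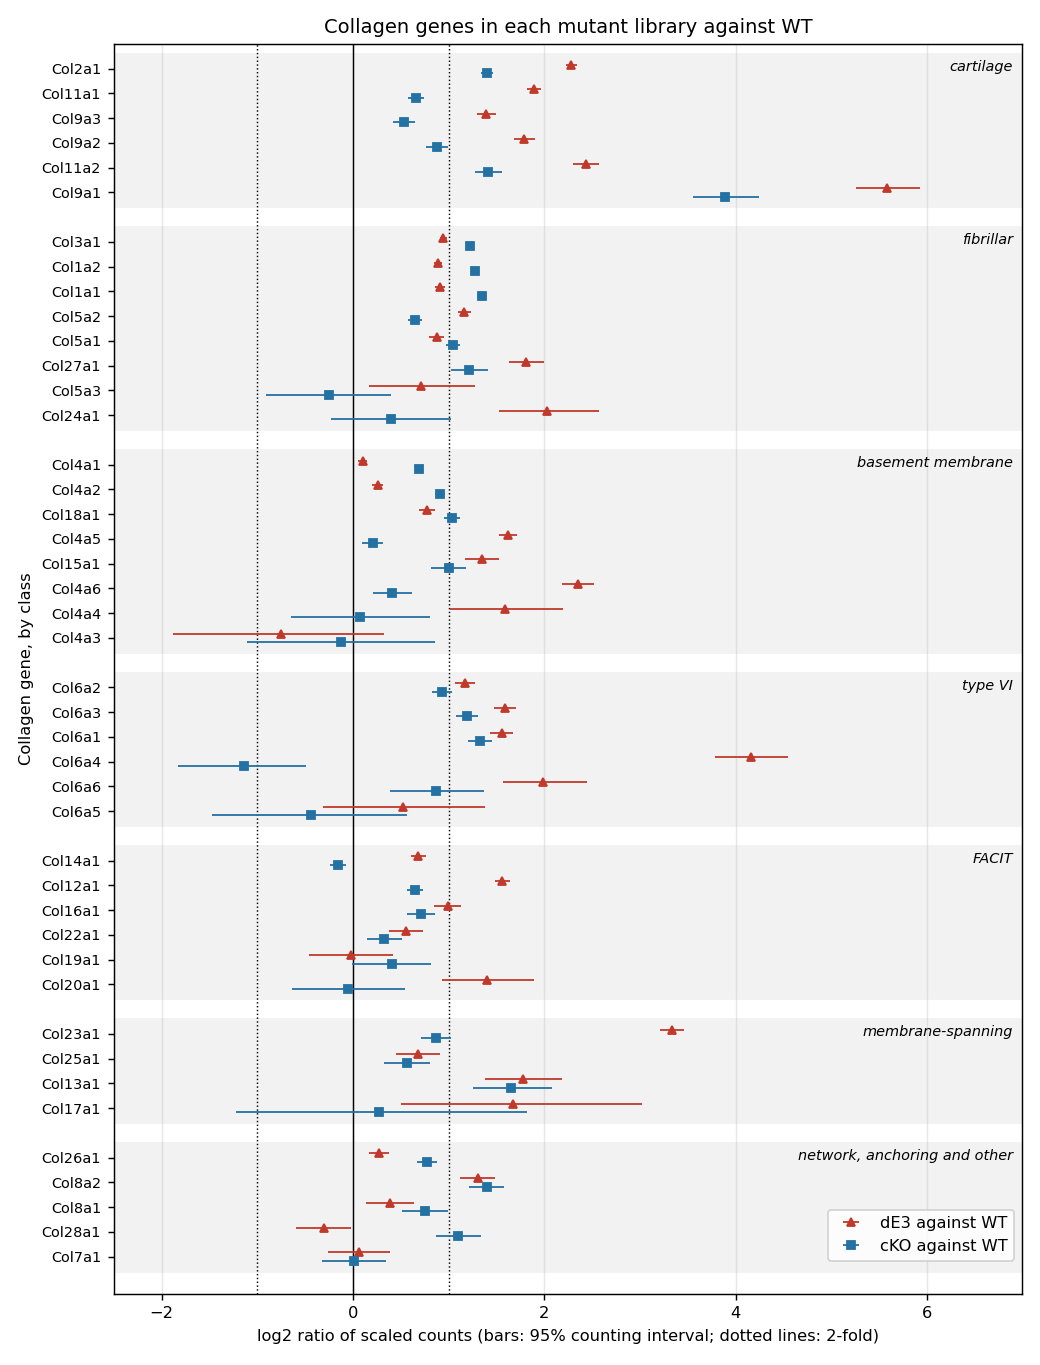
Log2 ratio of scaled counts of each measured collagen in dE3 (triangles) and cKO (squares) against the same WT library, with 95% counting intervals as bars and dotted lines at 2-fold. Col9a1, Col6a4 and Col23a1 lie farthest to the right in dE3, and Col6a4 is the only gene called lower in cKO.

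Among the basement membrane collagens the 3 libraries differed by chain. Of 8 measured genes 4 rose in dE3 (median log2 ratio 1.06) and 2 in cKO (median 0.55). Type IV collagen has 6 genes that sit in 3 head-to-head pairs, each pair reading outward from a shared stretch. The start sites are 21 bases apart for Col4a1 and Col4a2 on chromosome 8, 72 for Col4a3 and Col4a4 on chromosome 1 and 1309 for Col4a5 and Col4a6 on chromosome X. The pairs make the widespread vessel network, the network of the adult kidney and lung (with Col4a5) and a network of skin and smooth muscle.

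Col4a1 held 240.4 CPM in WT, with 258 in dE3 and 387 in cKO. Its ratios were 1.07 in dE3 (1.04 to 1.11) and 1.61 in cKO (1.57 to 1.66), neither of which was called. Col4a2 measured 149, 178 and 279.6 CPM in WT, dE3 and cKO, with ratios of 1.20 (1.15 to 1.24) and 1.88 (1.81 to 1.95). For this pair cKO was the highest library. The X-linked pair had the other order. Col4a5 stood at 38.3 CPM in WT, beside 118 in dE3 and 44.1 in cKO. It rose 3.08-fold in dE3 (2.89 to 3.29) beside a ratio of 1.15 in cKO (1.07 to 1.25). Col4a6 stood at 11.0, 56.0 and 14.6 CPM, a rise of 5.09-fold in dE3 (4.54 to 5.72) and a ratio of 1.33 in cKO (1.16 to 1.53).

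In TPM, Col4a5 was 0.169 of Col4a1 in WT, with 0.538 in dE3 and 0.138 in cKO, so that dE3 stood apart in the makeup of type IV RNA. Within pairs, Col4a1 was 1.60 times Col4a2 in WT, 1.43 times in dE3 and 1.36 times in cKO, in TPM. Col4a5 was 3.81, 2.56 and 3.76 times Col4a6. The third pair was scarce. Col4a4 had 33 counts in WT, beside 109 in dE3 and 36 in cKO and rose in dE3 (3.01-fold, 2.02 to 4.59). Its partner Col4a3 had 20, 13 and 19 counts and was the single collagen with its highest level in WT (ratio 0.593 in dE3, 0.271 to 1.25). The intervals of these 2 neighbours in dE3 do not overlap. Exons of Col4a3 share 563 bases with an antisense transcript, C430014B12Rik, which had 20, 6 and 3 counts.

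Types XV and XVIII are collagens of the basement membrane zone that carry heparan or chondroitin sulfate, and type XVIII is the source of endostatin. Col18a1 held 54.6 CPM in WT, with 93.3 in dE3 and 112 in cKO, and rose in cKO (2.05-fold, 1.94 to 2.17) with a ratio of 1.71 in dE3 (1.61 to 1.81). Col15a1 held 11.4, 28.9 and 22.7 CPM and rose in dE3 (2.55-fold, 2.26 to 2.88). Its ratio in cKO was at the threshold itself, 2.002 (1.76 to 2.28). Of 12 endothelial markers 1 rose in dE3 (median log2 ratio 0.20) and 0 in cKO (median 0.52), with a sum of 272 CPM in WT, beside 313 in dE3 and 395 in cKO. The cKO library had the highest sum of vessel markers. Of the 8 basement membrane collagens 3 were highest in cKO (Col4a1, Col4a2 and Col18a1), 4 in dE3 and 1 in WT. Of 10 pericyte and smooth muscle markers 1 rose in dE3 and 3 in cKO, with sums of 285, 348 and 338 CPM. Whether vessel content bears on the type IV values was not tested.

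Type VI collagen forms beaded filaments around cells of muscle, cartilage and connective tissue, from the classic chains of Col6a1, Col6a2 and Col6a3 and the alternative chains of Col6a4, Col6a5 and Col6a6. Of the 6 genes 5 rose in dE3 (median log2 ratio 1.57), and in cKO 2 rose and 1 fell (median 0.90). Col6a1 held 22.8 CPM in WT, with 67.2 in dE3 and 57.5 in cKO, and rose in both, 2.94-fold (2.71 to 3.20) and 2.52-fold (2.31 to 2.74). Col6a3 held 26.8, 80.6 and 61.3 CPM and rose 3.01-fold (2.79 to 3.25) and 2.29-fold (2.11 to 2.48). Col6a2 held 33.5, 75.4 and 63.9 CPM, a rise of 2.25-fold in dE3 (2.09 to 2.42) and a ratio of 1.91 in cKO (1.77 to 2.05). Without its most different transcript Col6a2 was not called in dE3 (log2 ratio 0.65). All 3 classic chains were highest in dE3 and lowest in WT.

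Col6a4, an alternative chain, went in opposite directions in the mutant libraries. It had 62 counts in WT, beside 1215 in dE3 and 29 in cKO, or 1.94, 34.7 and 0.878 CPM. It rose 17.9-fold in dE3 (13.8 to 23.4) and was the only collagen that fell in cKO, to 0.453 of WT (0.281 to 0.714). The ratio of dE3 to cKO was 39.5 (27.3 to 59.2), the largest of any collagen. In TPM it was 0.106 of Col6a3 in WT, with 0.480 in dE3 and 0.0170 in cKO. The gene lies at chr9:105989454-106096783 on the minus strand, next to Col6a5 and Col6a6 on the same strand. Col6a6 had 55 counts in WT, beside 240 in dE3 and 104 in cKO and rose in dE3 (3.98-fold, 2.96 to 5.43), and its ratio in cKO was 1.83 (1.31 to 2.59). Col6a5, which lies between them, had 21, 33 and 16 counts, and its intervals included 1 in both comparisons.

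Skeletal muscle genes rose in the same libraries. Of 14 measured muscle markers 14 rose in dE3 (median log2 ratio 3.51) and 12 in cKO (1.70), and their sum was 16.4 CPM in WT, with 211 in dE3 and 56.0 in cKO. Of the 9 that reached 20 counts in WT, 9 rose in dE3 and 7 in cKO, whereas the other 5 were measured through a mutant library, which favours a rise. Myf5, Tnni1 and Cav3 were at 0 in WT. Actc1, a sarcomere actin, had 70 counts in WT, beside 1504 in dE3 and 322 in cKO. The order of this sum was that of the cartilage and classic type VI collagens, among other members, but not that of Col6a4, which was lowest in cKO. The part of muscle RNA in these values was not tested.

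The FACITs bind to the surface of collagen fibrils. Of 6 measured genes 2 rose in dE3 (median log2 ratio 0.84) and 0 in cKO (median 0.36). Col12a1, a FACIT of dense connective tissue, held 57.1 CPM in WT, with 168 in dE3 and 89.5 in cKO. It rose 2.95-fold in dE3 (2.80 to 3.11), with a ratio of 1.57 in cKO (1.48 to 1.66). Col20a1 had 51 counts in WT, beside 148 in dE3 and 51 in cKO, and rose in dE3 (2.65-fold, 1.91 to 3.71). Col14a1, which is close in structure to Col12a1, held 71.0, 114 and 63.8 CPM, with ratios of 1.61 (1.53 to 1.69) and 0.898 (0.846 to 0.953), neither called. Col16a1 held 19.3, 38.3 and 31.6 CPM, and its ratio of 1.99 in dE3 (1.80 to 2.19) fell just short of the threshold. With the size factors of DESeq2 or with library totals it reached a log2 ratio of 1.01 and was called. The remaining 2, Col19a1 and Col22a1, passed in neither library.

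Membrane-spanning collagens are anchored in the cell surface and shed their triple helix. Of 4 measured genes 3 rose in dE3 (median log2 ratio 1.73) and 1 in cKO (median 0.72). Col23a1 stood at 16.7 CPM in WT, beside 169 in dE3 and 30.6 in cKO. It rose 10.1-fold in dE3 (9.23 to 11.0), with a ratio of 1.82 in cKO (1.64 to 2.03) that was not called, and dE3 exceeded cKO 5.53-fold (5.17 to 5.91). A single transcript held 99.6% of its counts in WT, beside 99.7% in dE3 and all of them in cKO. In TPM it was the 22nd collagen in WT, the 10th in dE3 and the 24th in cKO. Col23a1 lies at chr11:51289920-51583918 on the plus strand. Such use of 1 transcript also holds for members such as Col1a1, Col4a2 and Col5a1. The bases before the RefSeq start of Col23a1 on GRCm38.p6 are shown because its ratio in dE3 was among the largest. Capitals mark the same 4 motifs.
Col23a1, chr11:51289670-51289919, plus strand: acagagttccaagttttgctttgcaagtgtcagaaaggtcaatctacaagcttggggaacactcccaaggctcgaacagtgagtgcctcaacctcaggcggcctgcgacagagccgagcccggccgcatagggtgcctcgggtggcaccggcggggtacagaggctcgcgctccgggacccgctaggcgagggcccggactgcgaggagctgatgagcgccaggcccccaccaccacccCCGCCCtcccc
This stretch holds 1 GC box, read as CCGCCC on this strand, and none of the other 3 motifs.

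Col13a1, a membrane-spanning collagen of cell junctions and of the nerve-muscle synapse, had 66 counts in WT, with 248 in dE3 and 215 in cKO. It rose in both, 3.43-fold (2.60 to 4.57) and 3.15-fold (2.38 to 4.22). Col17a1, the hemidesmosome collagen of the epidermis, had 8, 28 and 10 counts. Its ratio of 3.19 in dE3 (1.42 to 8.10) was called, but it reached the minimum of 20 counts through dE3 alone, which favours such a call. Of 9 epidermal markers 7 rose in dE3 and 1 in cKO, with sums of 13.0, 33.6 and 15.3 CPM. Of the 6 that reached the minimum in WT, 4 rose in dE3 and 0 in cKO. Krt8 was at 0 in WT, and the part of epidermal RNA was not tested. Col25a1, a collagen of neurons, held 7.76, 12.4 and 11.5 CPM, with ratios of 1.60 (1.37 to 1.88) and 1.48 (1.26 to 1.74) that were not called.

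Of the 5 network-forming, anchoring and other collagens 1 rose in dE3 (median log2 ratio 0.27) and 2 in cKO (0.77). Col8a2, a short-chain collagen of hexagonal networks, held 10.6 CPM in WT, beside 26.1 in dE3 and 27.9 in cKO. It rose 2.47-fold in dE3 (2.18 to 2.80) and 2.64-fold in cKO (2.33 to 2.995). Its partner Col8a1 was not called, and in TPM it was 0.557 of Col8a2 in WT, with 0.296 in dE3 and 0.358 in cKO. Col28a1, known from peripheral nerve, had 217, 193 and 480 counts. It rose in cKO (2.14-fold, 1.82 to 2.52), had a ratio of 0.811 in dE3 (0.664 to 0.989) and was the only collagen called lower in dE3 than in cKO (ratio 0.379, 0.319 to 0.449). Of 10 Schwann and neural crest markers 0 rose in either library, and their sum was 696 CPM in WT, beside 383 in dE3 and 740.2 in cKO. Fabp7, also a gene of neural progenitors, made up most of this sum in WT and fell in dE3 (446, 146 and 358 CPM). Without it the sums were 251, 237 and 382 CPM, highest in cKO. The part of nerve RNA in the Col28a1 value was not tested. Col26a1 was the most abundant of this class in TPM (37.96 in WT, with 44.7 in dE3 and 63.6 in cKO) and was not called.

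The makeup of collagen RNA was then compared per transcript length. The 43 genes summed to 836 TPM in WT, 1963 in dE3 and 1681 in cKO. Cartilage collagens took 17.4% of this sum in WT, 31.0% in dE3 and 18.0% in cKO. Fibrillar collagens took 37.2%, 31.7% and 43.2%, and the basement membrane class 24.1%, 15.8% and 20.9%. Membrane-spanning collagens went from 1.76% in WT to 4.74% in dE3 and 1.58% in cKO. More collagen RNA with another makeup was present in dE3, and more with a cartilage share near that of WT in cKO. In WT the 3 most abundant collagens in TPM were Col3a1 (112), Col4a1 (91.7) and Col1a2 (86.7). In dE3 the first was Col2a1 (229 TPM), ahead of Col3a1 (219), while cKO began with Col3a1 (262) and Col1a2 (219). Col2a1 stood at 0.871 of the TPM of Col1a1 in WT, beside 2.04 in dE3 and 0.846 in cKO.

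**Figure D4:**
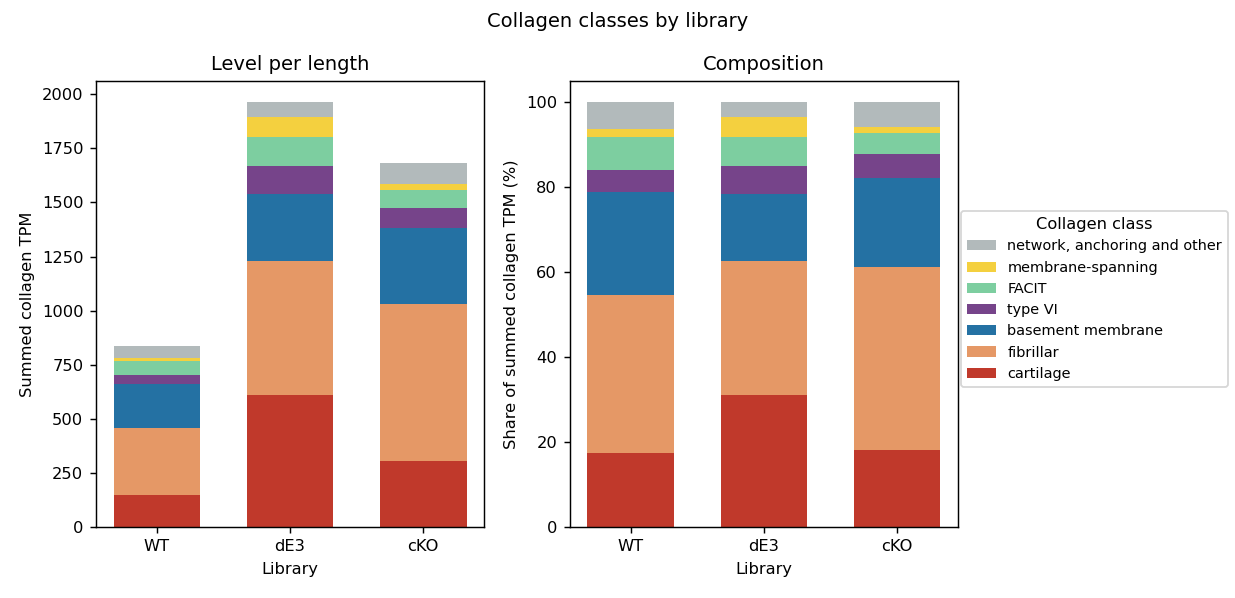
Summed TPM of the 43 collagens by class in each library (left) and the share of each class in that sum (right, percent). The sums are 836 TPM in WT, 1963 in dE3 and 1681 in cKO, and the cartilage share is 17.4%, 31.0% and 18.0%.

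The mutant libraries were also set against each other, first by the sums of classes. The sum of the cartilage collagens in dE3 was 2.05 times that in cKO (2.02 to 2.09), and that of the membrane-spanning class was 3.87 times (3.67 to 4.09). Those of FACITs and of type VI gave ratios of 1.68 (1.63 to 1.73) and 1.42 (1.37 to 1.47). The sums of the fibrillar and basement membrane classes were lower in dE3, with ratios of 0.852 (0.842 to 0.862) and 0.853 (0.839 to 0.868), and so was that of the network, anchoring and other class, at 0.739 (0.705 to 0.774). Gene by gene, the fibrillar and the basement membrane class each had 4 members above and 4 below cKO. Of the cartilage collagens, Col9a1 (3.24-fold, 3.03 to 3.46), Col11a1 (2.37-fold, 2.27 to 2.47) and Col11a2 (2.02-fold, 1.90 to 2.15) were called higher in dE3. The ratio of Col2a1 was 1.84 (1.79 to 1.89), of Col9a2 1.89 and of Col9a3 1.82, all just under the threshold. The call of Col11a2 was not kept in TPM (log2 ratio 0.91) and its direction turned without its most different transcript (-0.35). Those of Col9a1 and Col11a1 were not kept without their most different transcript (0.18 and 0.77). For Col11a1 that transcript holds nearly all counts, and the 0.77 rests on 147 of 7739 counts in dE3 and 81 of 3083 in cKO. Of the other classes 9 genes were called higher in dE3, among them Col6a4, Col23a1, Col4a6, Col24a1 and Col4a5.

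Transcript splits of some members differed between libraries more than their gene counts. For Col11a2, transcript ENSMUST00000087497 took 85.9% of counts in WT, beside 16.9% in dE3 and 6.73% in cKO. Transcript ENSMUST00000114255 of the same gene took 0.743%, 61.3% and 0%, and ENSMUST00000114252 took 0.743%, 18.0% and 85.2%. The first differs from the others in exon 6 and at both ends. For Col4a1, transcript ENSMUST00000209735 took 37.4%, 35.9% and 0.403%. For Col26a1, transcript ENSMUST00000111103 took 79.4%, 23.3% and 75.1%. Without its most different transcript, Col4a1 had a log2 ratio of -5.28 in cKO against WT. How the authors divided counts among transcripts, and with what error, is not given in the sources used here.

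Genes that make, bind and degrade collagen were read as 3 lists. Of 34 genes of collagen biosynthesis 9 rose and 0 fell in dE3 (median log2 ratio 0.67), and 5 rose and 0 fell in cKO (0.24). Serpinh1, a chaperone specific to collagen, held 111 CPM in WT, with 269 in dE3 and 89.5 in cKO. It rose 2.42-fold in dE3 (2.33 to 2.52), with a ratio of 0.807 in cKO (0.768 to 0.847). Loxl2, a lysyl oxidase that cross-links collagen, held 12.5, 34.8 and 29.7 CPM and rose 2.79-fold (2.49 to 3.13) and 2.38-fold (2.11 to 2.68). P4ha2, a subunit of the proline hydroxylase that stabilises the triple helix, rose in dE3 (2.46-fold, 2.13 to 2.84) and had a ratio of 1.15 in cKO. Loxl4 rose 2.46-fold in dE3. Creb3l1, Pcolce and Adamts2, which act in collagen transcription or in the trimming of procollagen, rose in cKO, with ratios of 2.39, 2.07 and 2.19. Their ratios in dE3 were 1.69, 1.61 and 1.60, under the threshold. The most abundant genes of the list in WT, P4hb (ratios 1.28 and 1.22) and Sec23a (0.933 and 1.02), were not called.

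Of 10 collagen receptors 2 rose in dE3 and 1 in cKO. The discoidin receptor Ddr2, which binds fibrillar collagen, held 14.1 CPM in WT, beside 35.6 in dE3 and 26.01 in cKO and rose 2.52-fold in dE3 (2.26 to 2.81). The cartilage integrin chain Itga10 rose 2.15-fold in dE3, and the fibroblast chain Itga11 rose 2.64-fold in cKO. Adgrg1 and Ddr1, the most abundant receptors of the list in WT, were not called. Of 11 genes of collagen breakdown 3 rose and 3 fell in dE3, and 0 were called in cKO. The protease genes Fap (3.44-fold) and Mmp14 (2.12-fold) and the inhibitor gene Timp1 (2.13-fold) rose. The inhibitor Timp3, which binds to matrix, fell from 99.6 CPM in WT to 41.4 in dE3 (ratio 0.416, 0.391 to 0.443) and held 116 in cKO. Timp4 fell from 357 counts in WT to 66 in dE3 (ratio 0.169, 0.128 to 0.220), with 441 in cKO. Mmp9 fell to 0.485 of WT in dE3, and the most abundant genes of the list in WT, Timp2 and Mmp15, were not called. Of 5 notochord markers 2 rose in dE3 and 1 in cKO, and of 10 microglia and macrophage markers 1 fell in dE3. Of 12 neural progenitor genes 2 rose and 3 fell in dE3, and 0 rose and 1 fell in cKO. All these counts stand beside the shares over all genes given above (6.52% rose and 3.78% fell in dE3, and 3.48% and 3.41% in cKO).

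**Figure D5:**
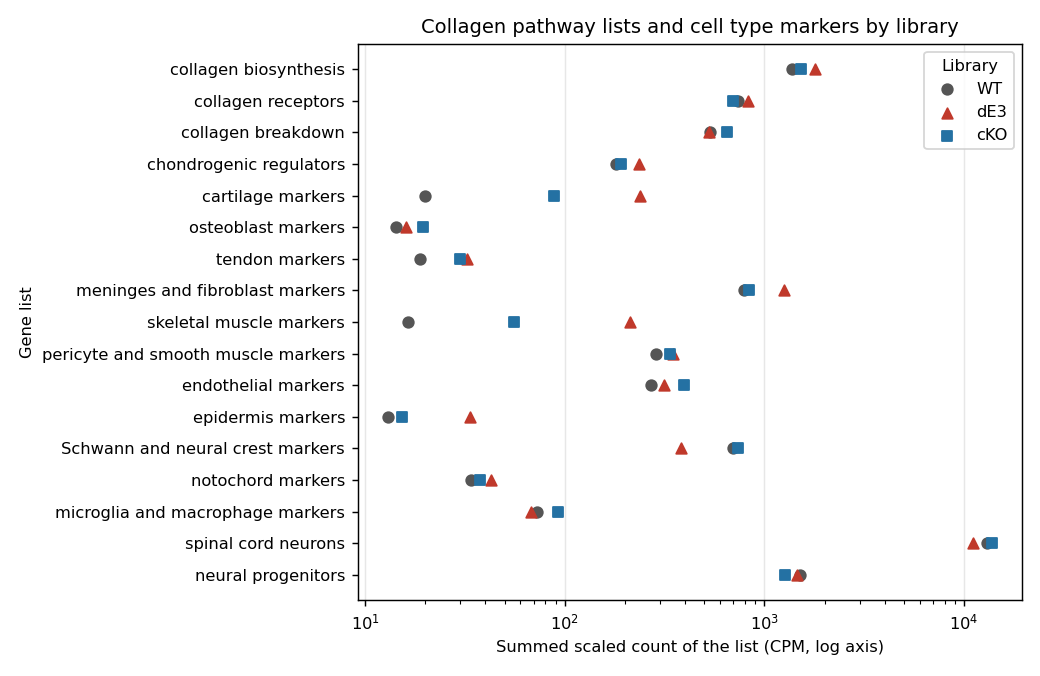
Summed scaled count (CPM, log axis) of each pathway or cell type marker list in the WT, dE3 and cKO libraries. The sums of cartilage markers (19.9, 238 and 88.5 CPM) and skeletal muscle markers (16.4, 211 and 56.0 CPM) are spread most widely, and that of spinal cord neurons is 13053, 11070 and 13832 CPM.

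The motifs in capitals above were counted in windows of 300 bases around RefSeq start sites (250 before and 50 after), of which 35 of the 44 collagen genes had 1 or more, 38 windows in all. The 6 windows of cartilage collagens belong to Col9a1 (2), Col9a2, Col11a1, Col11a2 and the unmeasured Col10a1, with none for Col2a1 or Col9a3. TCAAAG on either strand stood in 9 of 38 collagen windows and 2 of 6 cartilage windows, and in 5257 of all 32851 windows. ACAATG, a core of sites bound by SOX factors, stood in 1 of 38 and 0 of 6, and in 12.6% of all of them. The GC box GGGCGG stood in 23 of 38 and 3 of 6, and in 35.7% of all. TATAAA stood in 5 of 38 and 2 of 6 (Col10a1 and Col11a2), and in 13.6% of all. No motif contains another. These counts describe the letters in the windows and not binding.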

How the data were processed

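Spinal cord RNA of 3 genotypes was sequenced as 1 library each, from 1 µg of total RNA with a Vazyme mRNA kit after Trizol extraction, per the labels. CASAVA, Bowtie2 2.3.2 and GRCm38.p6 appear without roles in the submitters' processing notes. For the quantifier, the annotation release and strand use, the entry is "not given in the sources used here". The authors deposited estimated counts, TPM and FPKM per gene and per transcript, named per the file headers. All deposited estimated counts are whole. The authors' TPM served for levels between genes and as an alternative scale, and the deposited FPKM values entered no result.

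CPM values are counts divided by library sizes that were scaled by TMM (edgeR 4.0.16, R 4.3.3) over the measured genes, and alternatives used DESeq2 1.42.0 size factors. Ratios and intervals were computed with Python 3.11.15 and scipy 1.17.1. The code was run on simulated counts that held Poisson (counting) error alone, which checks the code and not any error beyond counting. Reads are not independent molecules, and the floor, like the intervals, covers counting error only. For a gene at 0 the floor was 3 counts per library, which is 0.0856 to 0.0939 CPM. There being no replicates, no p-value was computed.

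The members, the classes and the 18 lists (235 symbols, 232 matched) were chosen with earlier results of these data known. Named were every measured cartilage collagen, and of each other class the members called against WT and the 3 with the highest TPM in WT. Of each list, up to 4 called genes by their ratio in dE3 and the 2 highest in WT were eligible. Outside this rule, Col4a3, Col6a5, Col8a1, Col19a1, Col22a1, Creb3l1, Pcolce, Adamts2, Timp3 and Timp4 were named after their values were seen. Also outside it, Col7a1 was named for a turned ratio and Col10a1 as the member under the minimum. Myf5, Cav3, Ucma and 3110079O15Rik were named because they were at 0 in WT. Of 50-base words of each collagen, sampled at 1 in 16, at most 5.69% (Col9a3) occurred in another gene's GENCODE vM21 transcripts. All 44 genes were found in that release, 43 of them with the same span, and exons of 13 overlap another gene's. Protein sequences were not used here.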

Additional observations from a re-analysis of the deposited data

How the results depend on the processing

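No paired analysis was possible because each genotype has 1 library, and for the same reason no library could be left out. Of 963 recomputed gene ratios, 867 stayed called or stayed uncalled, 40 became calls, 49 lost the call and 7 turned direction with a call involved. A turn of direction without a call in either setting was counted among the 867. For the cartilage collagens, the median log2 ratio in dE3 against WT (2.09) was 1.90 with no minimum count, 1.98 in the authors' TPM and 1.497 without the transcript that differs most. That in cKO against WT (1.14) was 0.88 with no minimum count and 0.63 without that transcript, and that of dE3 against cKO (0.97) was 0.60 without it. At 4-fold, 7 collagens rose in dE3 against WT (3 cartilage and 4 others), 1 rose (1 cartilage and 0 others) and 0 fell in cKO against WT, and 2 were higher (0 cartilage and 2 others) and 0 lower in dE3 against cKO. At 1.5-fold, 27 rose in cKO against WT (5 cartilage and 22 others), and 20 were higher (6 cartilage and 14 others) and 3 lower in dE3 against cKO. Without the transcript that differs most, which left fewer genes with enough counts, the other classes had 11 higher in dE3 against WT and 1 collagen fell. In cKO against WT 8 were higher (6 of them in other classes) and 2 lower, and in dE3 against cKO 7 were higher, 0 lower and 0 of the cartilage class. With type XI counted as fibrillar, 1 cartilage collagen of 4 was higher in dE3 than in cKO. Where a call was involved, signs turned only without the transcript that differs most. In dE3 against WT these were Col5a2 (log2 ratio -0.0459) and Col26a1 (-1.37), and in cKO against WT Col4a1 (-5.28) and Col11a2 (-1.33). In dE3 against cKO they were Col4a1 (5.32), Col11a2 (-0.35) and Col26a1 (1.12). Some uncalled ratios near 0 turned in the authors' TPM, such as Col19a1 in dE3 against WT and Col7a1 in cKO against WT. Uncalled ratios of dE3 against cKO turned without that transcript too, among them Col5a2 (from 0.52 to -0.91, on 34 and 60 counts). Also without it, Col6a2 lost its call in dE3 (0.65) and Col3a1 in cKO (0.50), the latter on 28 and 41 counts. Beyond the fewer counts left, the cause was not tested. At the depth of these libraries, genes under about 100 counts, such as Col4a3, Col6a5 and Col17a1, have wide intervals.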
